A study of Homo sapiens with 6 samples.

Results

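The genes described here are 36 NRF2 targets, NRF2 regulators and antioxidant enzymes, found by gene name among the 21533 gene rows of each deposited table, and all 36 had a row. RNA was sequenced from LX-2 cells, a line of human hepatic stellate cells immortalised for culture, with mesenchymal as its labelled cell type and a medium low in serum. In 3 samples the cells had been transfected with PERK siRNA and in 3 with control siRNA, and all 6 had then been given palmitic acid, a saturated fatty acid, with RNA collected 24 h later. PERK, encoded by EIF2AK3, is a kinase that senses stress in the endoplasmic reticulum. Cells without palmitic acid were not analysed here, so every difference is one between siRNAs in lipid-treated cells of 1 line, and the sequences and number of the siRNAs are not given in the labels.

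NRF2, encoded by NFE2L2, is the main transcription factor of the response to oxidants and electrophiles. In resting cells the adaptor KEAP1 holds it and hands it to a CUL3 ubiquitin ligase for degradation. Oxidants that modify KEAP1 let NRF2 accumulate, pair with a small MAF protein such as MAFG and bind antioxidant response elements. Its targets supply reduced thioredoxin, glutathione and NADPH, the cofactor that recharges both, and conjugate, reduce or export reactive compounds. PERK has been described as a kinase of NRF2, and NRF2 is controlled largely as a protein, which RNA sequencing does not measure. In fibrotic liver, oxidants are among the signals that activate stellate cells.

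More members were lower than higher with PERK siRNA, and the deepest falls were those of the reductases that recharge thioredoxin and glutathione. TXNRD1 fell to 33.1% and GSR to 36.04% of the control siRNA mean. The mRNA of NRF2 itself did not pass the test on total exon reads, though it did on reads placed uniquely. AKR1C3, SOD2, MAFG, ME1, ABCC2 and PRDX3 fell by at least 1.5-fold, and CAT and ABCC3 rose by as much. The ABCC2 call rests on 18 to 36 reads per sample and was lost in 3 of 13 alternative fits. NQO1, TXN and CBR1 did not pass, and GCLM, PGD and PRDX1 fell by 0.09 to 0.12 on the log2 scale.

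Counts of reads were compared by edgeR's quasi-likelihood test, and adjusted p-values are Benjamini-Hochberg values over 12973 genes. Of the 36 members 35 were tested, 21 of them (60.0%) were lower and 8 (22.9%) were higher at an adjusted p under 0.05. Among all genes tested 35.0% were lower and 34.4% were higher, so many genes moved between these groups. The counts by role given below are to be read beside these shares. With the added demand of a 1.5-fold difference, a log2 fold change of at least 0.58 in size, 8 members (22.9%) were lower and 2 (5.71%) higher, against 9.82% and 11.1% of all genes. The 3 PERK siRNA samples and the 3 control siRNA samples did not overlap for 29 members (82.9%), against 71.8% of all genes. The median log2 fold change was -0.12 over the members and 0.0038 over all genes. Whether the 3 samples of a group were separate cultures is not stated in the labels, so the p-values here reflect sample-to-sample spread that may be technical. A lower level could also reflect less RNA of that gene in each cell or fewer cells that express it, which cannot be told apart in bulk RNA.

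**Figure D1:**
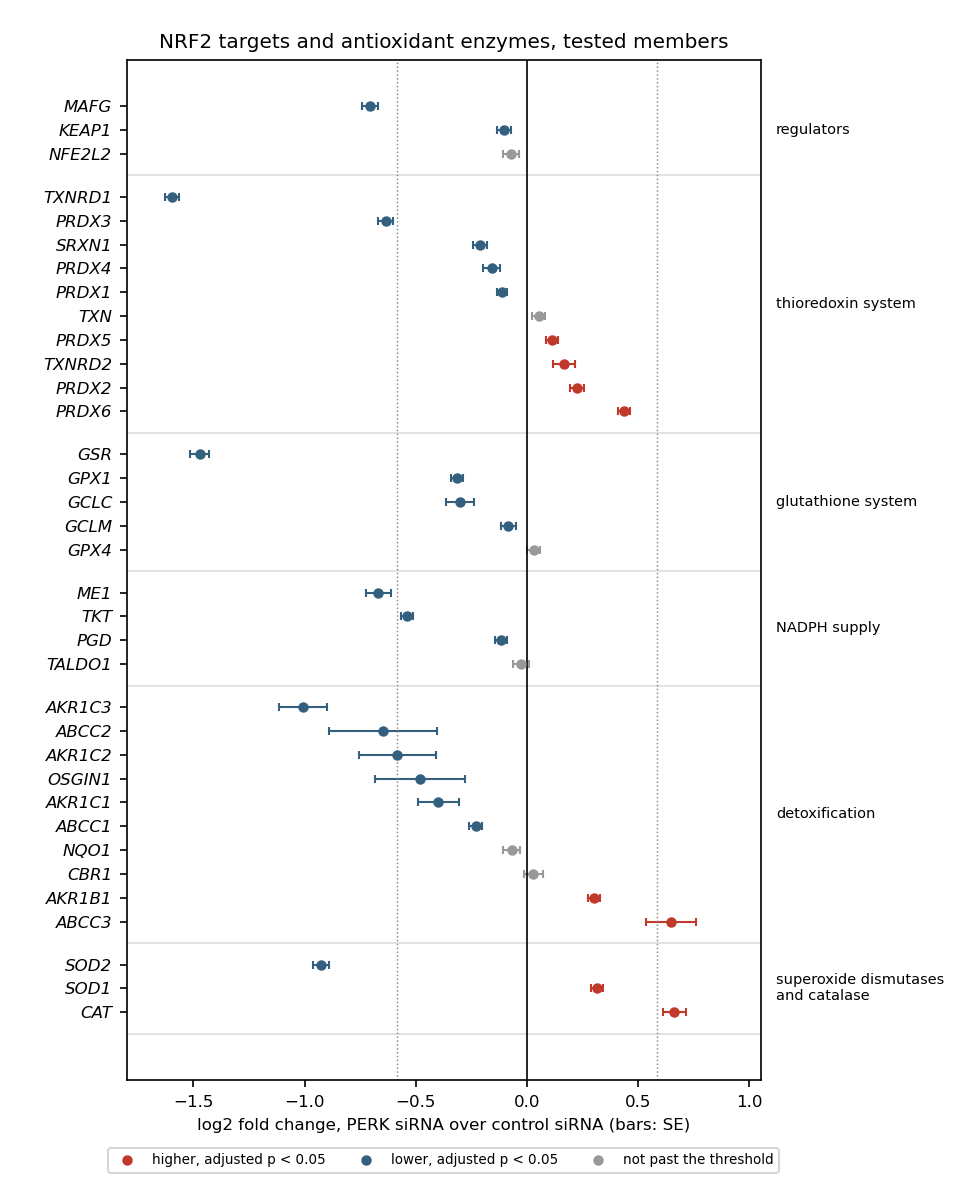
Log2 fold change (horizontal axis, PERK siRNA over control siRNA) of the 35 tested members, grouped by role, with bars of 1 SE and dotted lines at a 1.5-fold difference. TXNRD1 (-1.60) and GSR (-1.47) stand apart to the left, and CAT (0.66) and ABCC3 (0.65) are the 2 members beyond the right dotted line.

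The series as a whole was evenly sequenced, with 17937141 to 19535253 exon reads in PERK siRNA samples and 18560051 to 19585872 in control siRNA samples. EIF2AK3 stood at 4.37, 4.96 and 5.52 CPM (counts scaled to library size, with TMM factors) with PERK siRNA and at 12.9, 13.0 and 13.9 CPM with control siRNA, so that 37.3% of the mean remained. A count of 3 reads, taken as the floor of detection, was 0.154 to 0.168 CPM in PERK siRNA samples and 0.153 to 0.161 CPM in control siRNA samples. Of 14 stellate or mesenchymal markers 12 were tested. Of these 7 (58.3%) rose and 2 (16.7%) fell, against 34.4% and 35.0% of all genes tested. The summed level of the 14 was 6975 to 6988 TPM (the authors' level per exon length) with PERK siRNA and 6286 to 6409.5 TPM with control siRNA. DES and LRAT, which are in that list, were too scarce to test. Of 7 hepatocyte markers, ALB, APOA1, APOB, TTR and FGB had no read in any sample, and the list summed to 2.86 to 3.55 TPM and 3.16 to 4.12 TPM, in the same order of groups. CD163 and MARCO, of 6 macrophage and leukocyte markers, also had no read, and that list, mostly CD68, summed to 119 to 123 TPM with PERK siRNA and 128 to 135 TPM with control siRNA. The 5 endothelial markers summed to 1.80 to 2.43 TPM with PERK siRNA and 5.90 to 6.12 TPM with control siRNA. PECAM1 was the 1 of 3 tested endothelial markers that fell, to 0.313 ± 0.057 TPM with PERK siRNA, against 4.44 ± 0.028 TPM with control siRNA (SD, n = 3 each), while VWF and KDR did not pass. The 5 cholangiocyte markers, mostly SOX9, summed to 85.6 to 94.8 TPM and 131 to 138 TPM in that order, with CDH1 at 0 reads. The part of these shifts in the results was not tested.

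Of the 3 regulators, MAFG and KEAP1 fell and NFE2L2 did not pass. NFE2L2 (ENSG00000116044; chromosome 2, 177227595 to 177392697, minus strand, GRCh38) stood at 79.8, 75.1 and 74.7 CPM with PERK siRNA and at 80.9, 78.2 and 82.1 CPM with control siRNA, so the groups overlapped. Its log2 fold change was -0.07 (SE 0.04, adjusted p = 0.078, edgeR). Of its reads 76.5% were placed uniquely, 74.8% with PERK siRNA and 78.0% with control siRNA. In GENCODE v29, 17.63% of its exon bases overlap another gene of the same strand. On unique exon reads the value was -0.13 with an adjusted p of 0.0023, and NFE2L2 also passed without scaling factors (0.043), without control siRNA sample 2 (0.039) and without PERK siRNA sample 1 (0.024), while the adjusted p ranged up to 0.25 over the alternatives tried.

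KEAP1 (ENSG00000079999; chromosome 19, 10486120 to 10503741, minus strand) stood at 92.3, 91.7 and 92.0 CPM in PERK siRNA samples, below the 100.1, 97.3 and 99.3 CPM of control siRNA samples. The difference was small but larger than the spread, with a difference of -0.10 (log2, SE 0.03, adjusted p = 0.0048, edgeR). MAFG, the small MAF partner of NRF2 (ENSG00000197063; chromosome 17, 81918270 to 81927714, minus strand), had 67.6, 70.9 and 68.8 CPM with PERK siRNA, against 116, 114 and 108 CPM with control siRNA. All 3 PERK siRNA samples lay well below all 3 controls, and the log2 fold change was -0.71 (SE 0.04, adjusted p = 8.0e-17, edgeR).

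The element that NRF2 and its small MAF partner bind has the core TGACNNNGC. That core was searched on both strands in the RefSeq promoters of GRCh38.p14, from 250 bases before to 50 after each annotated start. The promoter table held 29 of the members with 42 starts. GSR, PRDX1, PRDX6, SOD1, ABCC1, ABCC3 and AKR1B10 were not in it and were not searched. The core was present at 1 or more starts of 6 of these 29 genes (20.7%), against 16.1% of 27305 genes in the table. Per start, 16.7% of the members' promoters and 13.3% of all promoters held it. The 6 were TXNRD1, ME1, KEAP1, GCLM and PGD, which fell, and CBR1, which did not pass. A match is a run of letters and not a site shown to be bound, and a gene without one may have an element elsewhere. Windows before the start of 4 of these genes are shown with the core in capitals, in the direction of transcription. They show the same core in genes that fell by very different amounts.

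TXNRD1, upstream start, chr12:104215640-104215728, plus strand: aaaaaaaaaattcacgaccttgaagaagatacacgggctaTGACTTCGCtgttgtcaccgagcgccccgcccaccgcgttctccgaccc

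TXNRD1, downstream start, chr12:104286890-104286978, plus strand: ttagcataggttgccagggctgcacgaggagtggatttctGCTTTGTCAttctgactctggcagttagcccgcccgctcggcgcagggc

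ME1, chr6:83431140-83431228, minus strand: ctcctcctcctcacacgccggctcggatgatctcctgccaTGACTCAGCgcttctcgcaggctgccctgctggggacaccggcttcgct

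GCLM, chr1:93909431-93909504, minus strand: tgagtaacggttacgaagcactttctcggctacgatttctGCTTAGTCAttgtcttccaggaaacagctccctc

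KEAP1, chr19:10502777-10502865, minus strand: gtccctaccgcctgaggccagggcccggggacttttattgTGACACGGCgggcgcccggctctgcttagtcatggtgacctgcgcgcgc

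The core lies 99 to 91 bases before the upstream TXNRD1 start and 102 to 94 bases before the downstream one, where it is on the opposite strand. In ME1 it lies 137 to 129 bases before the start and overlaps TGANTCA, the motif of AP-1 factors, which was present at a start of 2 of the 29 members (6.90%) and of 9.37% of all genes in the table. The GCLM core, on the opposite strand, lies 34 to 26 bases before the start. The KEAP1 window holds a second core, in lower case and on the opposite strand, 31 to 23 bases before the start. A second core on the opposite strand also reaches the upstream TXNRD1 start, and another lies after the ME1 start, both outside the windows shown.

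The 10 members of the thioredoxin system split, with 5 lower, 4 higher and 1 that did not pass, and a median log2 fold change of -0.03. TXNRD1, the cytosolic reductase that passes electrons from NADPH to thioredoxin (ENSG00000198431; chromosome 12, 104215779 to 104350305, plus strand), had 165, 163 and 167 CPM with PERK siRNA, against 496, 528 and 475 CPM with control siRNA. The controls were about 3.03-fold higher and no sample came near the other group. The log2 fold change was -1.60 (SE 0.03, adjusted p = 7.4e-20, edgeR), and lay between -1.64 and -1.56 under every alternative tried. TXN, its substrate thioredoxin, had 170.1, 164 and 176 CPM with PERK siRNA and 166, 167 and 159.6 CPM with control siRNA. These overlapped and the difference did not pass (0.05, SE 0.03, adjusted p = 0.12), although it did without PERK siRNA sample 2 (adjusted p = 0.036), with values up to 0.49 over the alternatives. On the TPM scale the ratio of TXNRD1 to TXN mRNA was therefore 0.127, 0.129 and 0.124 in PERK siRNA samples and 0.391, 0.412 and 0.388 in control siRNA samples.

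TXNRD2, the mitochondrial reductase, went the other way from TXNRD1. It had 36.7, 35.4 and 38.6 CPM with PERK siRNA and 33.2, 32.4 and 33.0 CPM with control siRNA, a difference of 0.17 (log2, SE 0.05, adjusted p = 0.0038). That call was lost with DESeq2 (adjusted p = 0.064), the highest of 13 alternatives. PRDX3, also mitochondrial (ENSG00000165672; chromosome 10, 119167703 to 119178833, minus strand), fell. PRDX3, a peroxiredoxin that removes hydrogen peroxide, had 82.6, 78.8 and 82.3 CPM with PERK siRNA and 128, 123 and 127 CPM with control siRNA. The groups were far apart, with a difference of -0.64 (log2, SE 0.03, adjusted p = 1.3e-16).

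The other peroxiredoxins differed by less and in both directions. PRDX6, which uses glutathione rather than thioredoxin, rose to 278 ± 3.45 CPM with PERK siRNA, against 205 ± 4.16 CPM with control siRNA (SD, n = 3 each), with a log2 difference of 0.44. PRDX2 of the cytosol (0.22) and PRDX5, found in mitochondria and peroxisomes (0.11), rose, and PRDX4 of the endoplasmic reticulum (-0.16) and cytosolic PRDX1 (-0.11) fell. The ratio of PRDX3 to PRDX2 mRNA, in TPM, was 0.414 ± 0.015 with PERK siRNA and 0.751 ± 0.0031 with control siRNA (SD, n = 3 each), so the mitochondrial enzyme lost ground to the cytosolic one in every PERK siRNA sample. Of the PRDX1 reads 70.2% were placed uniquely, and on these alone its value was -0.12. In GENCODE v29, 24.9% of the PRDX1 exon bases overlap MMACHC on the opposite strand.

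SRXN1, sulfiredoxin, repairs overoxidised peroxiredoxins. It fell to 84.6 ± 0.93 CPM with PERK siRNA, against 98.0 ± 1.82 CPM with control siRNA (SD, n = 3 each), with a log2 difference of -0.21 (adjusted p = 1.6e-06). Reads placed uniquely made up 6.89% of its total, and in GENCODE v29 a protein-coding gene of the same strand covers 84.95% of its exons. On the 105, 111 and 121 unique reads of PERK siRNA samples and 143, 124 and 115 of control siRNA samples the groups overlapped and the call was lost (-0.15, adjusted p = 0.22, the highest of 13 alternatives), so the SRXN1 value is uncertain.

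In the glutathione system 4 of 5 members fell, none rose, and the median log2 fold change was -0.30. PRDX6, which uses glutathione and rose, was counted with the thioredoxin system instead. GSR, which reduces oxidised glutathione with NADPH (ENSG00000104687), had 27.5, 27.8 and 28.8 CPM with PERK siRNA and 77.4, 79.0 and 76.9 CPM with control siRNA. The controls were 2.77-fold higher with no overlap, and the log2 fold change was -1.47 (SE 0.04, adjusted p = 1.0e-22, edgeR). It lay between -1.49 and -1.46 under every alternative tried. GSR and TXNRD1 catalyse parallel steps, each carrying electrons from NADPH to a thiol carrier.

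Both subunits of glutamate-cysteine ligase, which makes the first and rate-limiting bond of glutathione, were lower, the catalytic one by more. GCLC had 27.5, 31.0 and 27.7 CPM with PERK siRNA and 35.4, 38.7 and 32.3 CPM with control siRNA (-0.30, SE 0.06, adjusted p = 0.00023). GCLM, the modifier subunit, had 102, 98.1 and 103 CPM with PERK siRNA and 110.5, 108 and 103 CPM with control siRNA. The closest samples of the 2 groups nearly met, and the GCLM difference (-0.09, SE 0.03, adjusted p = 0.027) was lost with DESeq2 (adjusted p = 0.11), without control siRNA sample 1 (0.14) or 2 (0.055), and without PERK siRNA sample 2 (0.14), with adjusted p from 0.0045 over the 13 alternatives. The ratio of GCLM to GCLC mRNA, in TPM, overlapped between the groups, at 5.25, 4.46 and 5.23 with PERK siRNA and 4.41, 3.94 and 4.49 with control siRNA.

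Of the glutathione peroxidases, GPX1 fell and GPX4 did not pass. GPX1, the abundant cytosolic enzyme that removes hydrogen peroxide, had 171, 164 and 169 CPM with PERK siRNA, against 208, 204 and 215 CPM with control siRNA (-0.32, SE 0.03, adjusted p = 3.8e-11). Although 32.8% of its reads were placed uniquely, these alone gave -0.31. GPX4, which reduces lipid hydroperoxides in membranes and guards against ferroptosis, had 168 ± 1.23 CPM with PERK siRNA and 164 ± 6.21 CPM with control siRNA (SD, n = 3 each; 0.03, adjusted p = 0.35). The ratio of GSR to GPX1 mRNA, in TPM, was 0.073 ± 0.0023 with PERK siRNA and 0.164 ± 0.0064 with control siRNA (SD, n = 3 each).

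Among the 4 members of NADPH supply, 3 fell, none rose, and the median log2 fold change was -0.33. ME1, the cytosolic malic enzyme, which makes NADPH from malate (ENSG00000065833; chromosome 6, 83210389 to 83431071, minus strand), had 20.7, 21.2 and 20.5 CPM with PERK siRNA and 33.1, 31.9 and 34.2 CPM with control siRNA. The log2 fold change was -0.67 (SE 0.05, adjusted p = 7.4e-12), with no overlap. TKT, transketolase of the non-oxidative pentose phosphate pathway, fell to 266 ± 4.15 CPM with PERK siRNA, against 387 ± 8.54 CPM with control siRNA (SD, n = 3 each; -0.54), just short of 1.5-fold. PGD, which makes NADPH in the oxidative arm of that pathway, fell slightly (-0.12, adjusted p = 0.00043). TALDO1, transaldolase of the non-oxidative arm, had 93.6 ± 1.36 CPM with PERK siRNA and 95.3 ± 4.28 CPM with control siRNA (SD, n = 3 each) and did not pass (-0.03, adjusted p = 0.49).

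**Figure D2:**
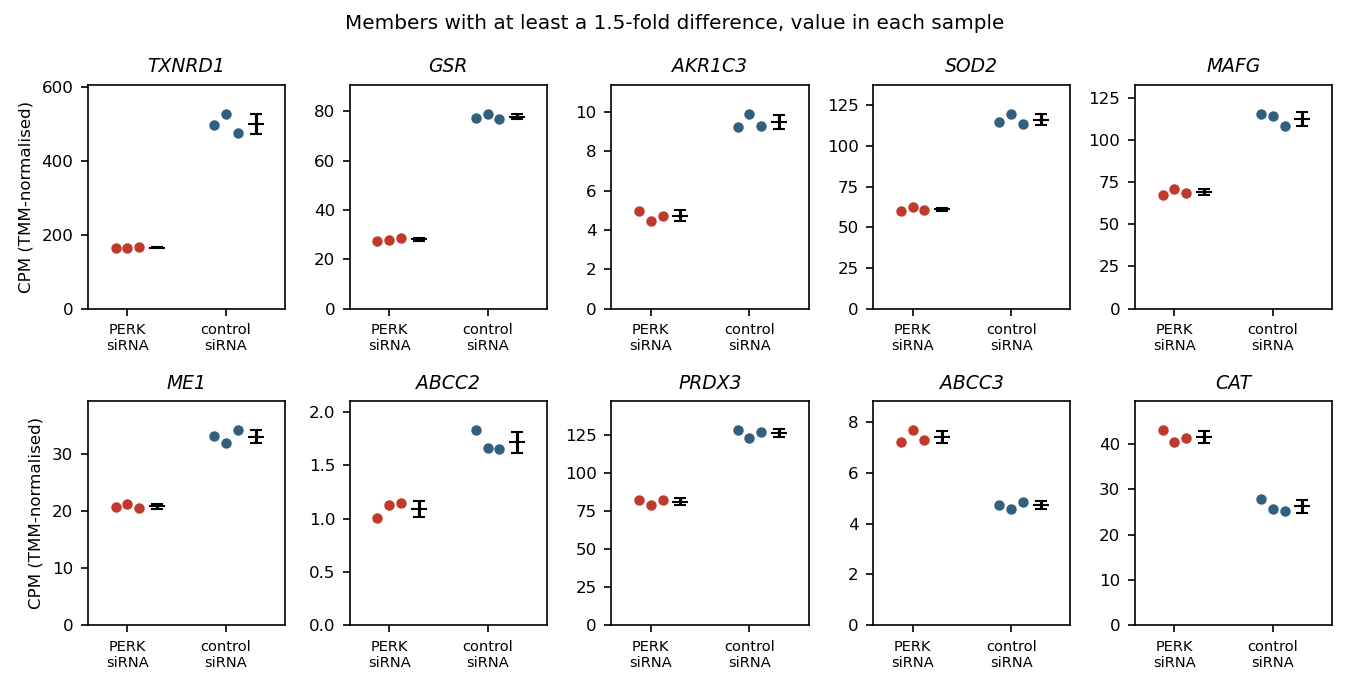
CPM in each sample (points) of the 10 members with at least a 1.5-fold difference, PERK siRNA left of control siRNA, with the mean and SD (n = 3) beside each group. The groups do not overlap in any panel, and AKR1C3, ABCC2 and ABCC3 are the 3 members below 10 CPM.

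The detoxification group had 6 lower and 2 higher members among 10 tested, and a median log2 fold change of -0.32. The aldo-keto reductases AKR1C1, AKR1C2 and AKR1C3, which reduce ketosteroids and reactive aldehydes and lie beside each other on chromosome 10, all fell. AKR1C3 (ENSG00000196139; 5035354 to 5107686, plus strand) had 4.99, 4.45 and 4.73 CPM with PERK siRNA, against 9.26, 9.92 and 9.32 CPM with control siRNA, a difference of -1.01 (log2, SE 0.11, adjusted p = 1.5e-09). AKR1C1 had 14.3, 12.1 and 15.8 CPM with PERK siRNA and 19.0, 20.2 and 16.5 CPM with control siRNA (-0.40, SE 0.09, adjusted p = 0.00079). These 2 genes are close copies, yet 84.9% of the AKR1C3 reads and 77.1% of the AKR1C1 reads were placed uniquely, and on unique reads their values were -1.06 and -0.42.

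AKR1C2 cannot be separated from its copies in these counts. It had 67, 55 and 70 reads with PERK siRNA and 98, 121 and 74 with control siRNA (log2 fold change -0.58, adjusted p = 0.0047), but 3.09% of them were placed uniquely, and no test was made on the 1 to 4 unique reads per sample. The call was lost without control siRNA sample 2, the highest control (-0.38, adjusted p = 0.051), and its adjusted p was as low as 0.00014 among 12 alternatives.

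In the related AKR1B pair, AKR1B1, the aldose reductase of the polyol pathway, rose to 183 ± 2.62 CPM with PERK siRNA, against 148 ± 1.33 CPM with control siRNA (SD, n = 3 each; 0.30, adjusted p = 5.5e-11). AKR1B10, an aldo-keto reductase often used as a marker of NRF2 activity, was the 1 member left untested for low counts, with 1, 1 and 0 reads with PERK siRNA and 2, 4 and 6 with control siRNA. Most of these counts are at or under the floor of 3 reads. Without a filter AKR1B10 was called lower (adjusted p = 0.043, edgeR), and with DESeq2 it was not (adjusted p = 0.15). NQO1, the quinone reductase that is a standard NRF2 reporter, had 113, 116 and 121 CPM with PERK siRNA and 123, 129 and 115 CPM with control siRNA. The groups overlapped and the difference did not pass (-0.07, SE 0.04, adjusted p = 0.10), but it did without filter (adjusted p = 0.030), without control siRNA sample 3 (0.0055) and without PERK siRNA sample 3 (0.038), with values up to 0.46 over the alternatives. CBR1, a carbonyl reductase, did not pass (0.03, adjusted p = 0.56).

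The 3 export pumps of the ABCC family moved apart. ABCC1, which exports glutathione conjugates and is by far the most expressed of the 3, fell to 133 ± 0.85 CPM with PERK siRNA, against 156 ± 5.04 CPM with control siRNA (SD, n = 3 each; -0.23, adjusted p = 5.1e-08). ABCC3 (ENSG00000108846; chromosome 17, 50634777 to 50692252, plus strand), which exports organic anions and bile salts, had 7.23, 7.68 and 7.28 CPM with PERK siRNA and 4.73, 4.56 and 4.87 CPM with control siRNA. It rose with no overlap (0.65, SE 0.11, adjusted p = 9.8e-06). ABCC2 (ENSG00000023839; chromosome 10, 99782640 to 99852594, plus strand), known as the canalicular pump of hepatocytes, was scarce, with 18, 22 and 22 reads with PERK siRNA and 36, 31 and 32 with control siRNA, or 1.01, 1.13 and 1.14 CPM against 1.83, 1.66 and 1.66 CPM. Its fall (-0.65, SE 0.24, adjusted p = 0.020) was lost with DESeq2 (adjusted p = 0.14), without control siRNA sample 1 (0.069) and without PERK siRNA sample 1 (0.063), with adjusted p from 0.011 over the 13 alternatives. OSGIN1, an oxidative stress-induced growth inhibitor, was also scarce, with 33, 36 and 35 reads with PERK siRNA and 60, 47 and 41 with control siRNA. The OSGIN1 call (-0.48, adjusted p = 0.036) was lost with DESeq2 (0.18) and without any 1 of 5 samples, all but control siRNA sample 3 (adjusted p up to 0.21, and from 0.018 over the 13 alternatives). A protein-coding gene of the same strand covers 13.9% of the OSGIN1 exons.

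Among the superoxide dismutases and catalase, mitochondrial SOD2 fell, and cytosolic SOD1 and peroxisomal CAT rose. SOD2, the manganese superoxide dismutase of mitochondria (ENSG00000291237), had 60.0, 62.2 and 60.9 CPM with PERK siRNA and 115, 119.8 and 114 CPM with control siRNA, a difference of -0.93 (log2, SE 0.03, adjusted p = 8.6e-20). SOD1, the copper-zinc enzyme of the cytosol, had 234, 224 and 227 CPM with PERK siRNA and 183, 180.0 and 187 CPM with control siRNA (0.32, SE 0.03, adjusted p = 1.9e-11). CAT, catalase of peroxisomes (ENSG00000121691; chromosome 11, 34438925 to 34472062, plus strand), had 43.0, 40.4 and 41.3 CPM with PERK siRNA and 27.9, 25.7 and 25.2 CPM with control siRNA (0.66, SE 0.05, adjusted p = 2.5e-12). None of these 3 overlapped between groups. The ratio of SOD2 to SOD1 mRNA, in TPM, was 0.014 ± 0.00051 with PERK siRNA and 0.032 ± 0.0015 with control siRNA (SD, n = 3 each). The low level of the ratio depends on the authors' exon length for SOD2, 18038 bases over all annotated transcripts, against 922 for SOD1.

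Levels per exon length put the changes in proportion. In TPM the most abundant members were PRDX5 at 1096 ± 18.3 with PERK siRNA and 1017 ± 19.8 with control siRNA, PRDX1 at 806 ± 12.7 and 875 ± 17.1, TXN at 802 ± 24.4 and 777 ± 24.4, and SOD1 at 860.0 ± 13.3 and 694 ± 9.02, in the same order of groups (SD, n = 3 each). TXNRD1 stood at 102 ± 0.99 TPM with PERK siRNA and at 309 ± 19.1 TPM, rank 10 of the members, with control siRNA (SD, n = 3 each). Summed over the members of each role, the thioredoxin system held 4256 ± 49.7 TPM with PERK siRNA and 4353 ± 38.7 TPM with control siRNA, and its samples overlapped. That sum holds the falls of TXNRD1, PRDX3, PRDX1, SRXN1 and PRDX4 together with the rises of PRDX6, PRDX5, PRDX2 and TXNRD2. PRDX6 made up 571 ± 10.9 TPM of it with PERK siRNA and 424 ± 5.17 TPM with control siRNA (SD, n = 3 each). Because PRDX6 uses glutathione, it could also be counted in the glutathione system. Whether the thioredoxin and glutathione sums overlap between the groups depends on that choice. The glutathione system held 946 ± 3.99 TPM with PERK siRNA and 1102 ± 14.7 TPM with control siRNA, NADPH supply 793 ± 6.76 and 968 ± 6.21 TPM, and the dismutases with catalase 931 ± 14.6 and 754 ± 7.17 TPM (SD, n = 3 each). TKT, of the non-oxidative arm, made up 292 ± 3.81 and 426 ± 11.6 TPM of the NADPH supply sum, in that order (SD, n = 3 each). The sum of dismutases with catalase was mostly SOD1. SOD2, with its exon length of 18038 bases, gave only 11.8 ± 0.29 and 22.4 ± 0.83 TPM of it (SD, n = 3 each), so its fall weighs little there. Detoxification summed to 658 ± 2.08 TPM with PERK siRNA and 629.8 ± 16.3 TPM with control siRNA, higher although 6 of its 10 tested members fell, and AKR1B1 alone made up 327 ± 3.45 and 267 ± 3.90 TPM of it, in that order (SD, n = 3 each). The regulators summed to 162 ± 1.52 TPM with PERK siRNA and 199.6 ± 3.38 TPM with control siRNA (SD, n = 3 each). One role was not tested against another.

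**Figure D3:**
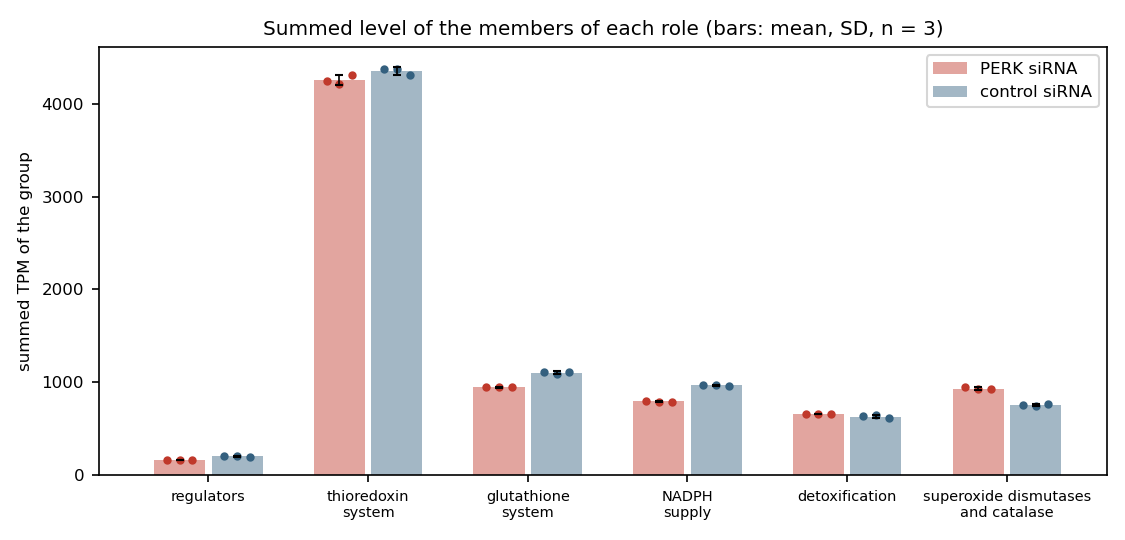
Summed TPM of the members of each role in each sample (points), with bars for the mean and lines for the SD (n = 3), PERK siRNA left of control siRNA. The glutathione and NADPH sums are lower with PERK siRNA in all 3 samples. The sum of dismutases and catalase, mostly SOD1, is higher. The thioredoxin sums overlap, with PRDX6, which uses glutathione, counted in them.

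A second list held 93 other genes of the same pathway, drawn up by role. Of its 84 tested genes 27 (32.1%) fell and 41 (48.8%) rose, and their median was 0.10 on the log2 scale, against 35.0% and 34.4% of all genes. At least 1.5-fold, 6 (7.14%) were lower and 11 (13.1%) higher, against 9.82% and 11.1% of all genes. The counts by group that follow are to be read beside the 35.0% lower and 34.4% higher of all genes. Among the 9 regulators of NRF2 in it, 4 fell and 3 rose. BACH1, a repressor that competes with NRF2 for the same elements, rose to 64.5 ± 2.65 CPM with PERK siRNA, against 38.3 ± 0.42 CPM with control siRNA (SD, n = 3 each; 0.75, adjusted p = 1.6e-15). NFE2L1, the NRF2 relative that controls proteasome genes, fell (-0.43), as did DPP3, whose product binds KEAP1 (-0.73).

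Of 21 tested genes of glutathione supply and use, 11 rose and 7 fell. SLC7A11, the cystine importer that feeds glutathione synthesis, had 27.5, 29.9 and 30.3 CPM with PERK siRNA and 108, 124 and 104 CPM with control siRNA. Its log2 fold change of -1.93 (SE 0.08, adjusted p = 5.1e-07) was a deeper fall than that of any of the 35 tested members. GSS, glutathione synthetase, which completes the tripeptide, rose (0.50), as did GPX8, a peroxidase of the endoplasmic reticulum (0.77), and GSTP1, the most abundant transferase of the list (0.27).

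Of 15 tested NADPH genes, 9 rose and 4 fell. IDH1, the cytosolic NADP-dependent isocitrate dehydrogenase, rose to 170.5 ± 2.58 CPM with PERK siRNA, against 100.1 ± 1.58 CPM with control siRNA (SD, n = 3 each; 0.77). NADK, the cytosolic kinase that makes NADP (0.74), and MTHFD1 of folate metabolism (0.55) rose too. So the NADPH-making genes moved in both directions, with ME1 and PGD lower and IDH1 higher.

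Of 16 tested thioredoxin-like, glutaredoxin and methionine sulfoxide reductase genes, 7 fell and 6 rose. The methionine sulfoxide reductase gene MSRB3 rose to 105 ± 1.85 CPM with PERK siRNA, against 41.1 ± 0.59 CPM with control siRNA (SD, n = 3 each; 1.35). The thioredoxin-like NXN, nucleoredoxin (1.30), and GLRX5, a mitochondrial glutaredoxin of iron-sulfur assembly (0.70), rose as well.

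Of 19 tested heme, iron and detoxification genes, 10 rose and 5 fell. HMOX1, heme oxygenase, a strongly inducible NRF2 target that BACH1 represses, had 32.5, 28.4 and 30.1 CPM with PERK siRNA and 31.4, 35.6 and 29.4 CPM with control siRNA. These overlapped and did not pass (-0.08, adjusted p = 0.25), although the difference did without control siRNA sample 3 (adjusted p = 0.046), with values up to 0.93 over the alternatives. FTL, the ferritin light chain, rose to 682 ± 12.7 CPM with PERK siRNA, against 302 ± 4.05 CPM with control siRNA (SD, n = 3 each; 1.18), and the heme transporter gene SLC48A1 rose (0.66). TRIM16, a ubiquitin ligase of the stress response, fell (-1.15), with 46.8% of its reads placed uniquely. Of the 4 superoxide and peroxide genes PON2, a paraoxonase (0.26), and CCS, the copper chaperone of SOD1 (0.33), rose, and none fell.

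**Figure D4:**
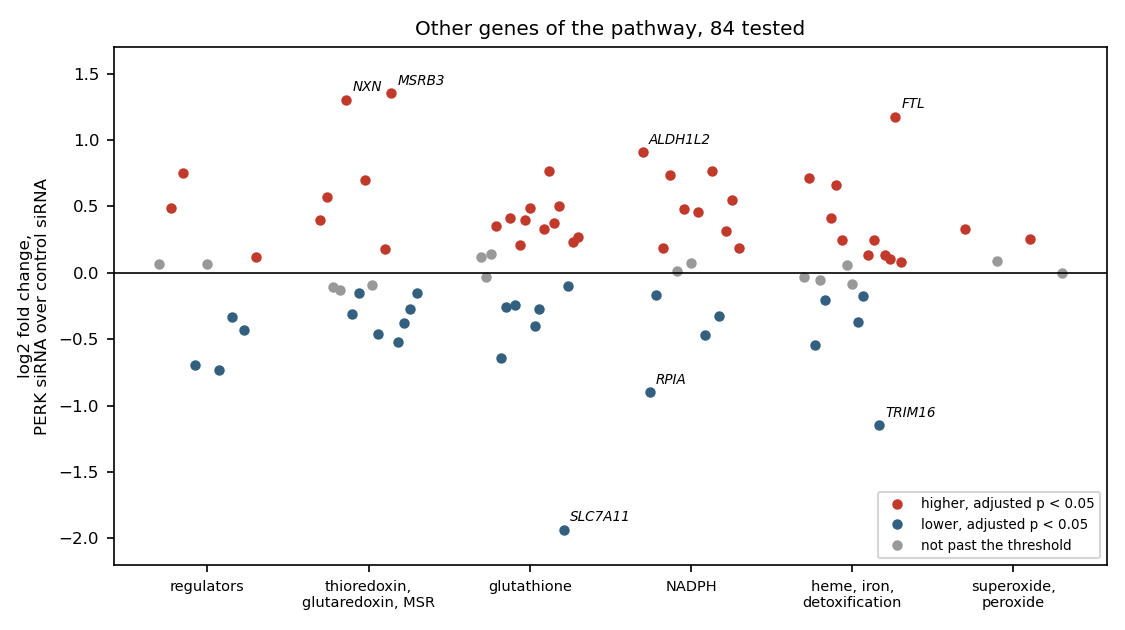
Log2 fold change (vertical axis, PERK siRNA over control siRNA) of the 84 tested genes of the second list, 1 point per gene in 6 groups, coloured by call. Within a group genes run from the lowest to the highest control CPM, genes furthest from 0 carry their names, and SLC7A11 at -1.93 lies furthest from 0.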

How the data were processed

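The authors deposited 1 table per sample which, per the file headers, holds counts of total and of unique exon reads and the TPM of each gene. Reads were handled on hg38, per the submitters' processing notes, and RNA came from a column kit and libraries from a directional kit, per the labels' protocols. The aligner, the counter and any use of strand in counting are not given in the sources used. Total exon reads were tested with edgeR 4.0.16 in R 4.3.3 (quasi-likelihood, TMM factors, default filter, robust, no covariate) on 12973 genes, with Benjamini-Hochberg adjustment at 0.05. CPM use TMM-scaled library sizes, SE is the log2 fold change divided by the root of the F statistic, and TPM is the deposited value. The fit was tested on simulated data. The members, the second list, the tests and the rule for named genes were chosen with earlier results of these data known. Values per sample are given for the 3 regulators and for members past the threshold and 1.5-fold, and for further members chosen after their values were seen. In each group of the second list up to 3 called genes with the smallest adjusted p are named, with HMOX1 and SLC7A11, and 1 further gene that the rule names is not reported here. Places came from GENCODE v29, in which 35 of the 36 members matched by identifier, and promoters from RefSeq (GRCh38.p14). Samples of a group differed beyond counting noise (chi-square over its degrees of freedom, 1.65 to 2.31). The detection floor covers counting error only. Alternatives were factors by median ratio or none, a filter of 1 CPM in 3 samples or none, DESeq2 1.42.0, unique exon reads, a replicate block and each sample left out.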

Additional observations from a re-analysis of the deposited data

How the results depend on the processing

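Over 13 alternatives, 430 of 454 values of tested members kept their side of the threshold, and none changed sign with a call. CBR1 and TALDO1, which did not pass in any fit, changed sign in some alternatives. Of the 35 tested members 26 held in every alternative run, 6 lost a call in at least 1 and 3 gained one, each named beside its result, and the cause was not tested. The counts of lower and higher members were 21 and 8, against 18 and 7 with DESeq2, 20 and 8 on unique exon reads, 22 and 8 without scaling factors and 23 and 8 without a filter, where NQO1 and AKR1B10 were the added calls. Leaving out 1 sample gave 18 to 22 lower and 8 to 9 higher members, where an arm of 2 samples remained. At least 1.5-fold, 8 to 10 members were lower and 2 higher in those fits. With the replicate number as a block the counts were 21 and 8, as without it. Samples with the same number did not deviate together (r across genes of 0.011, -0.032 and -0.029), so the numbers were not taken as pairs. For the second list, 1056 of 1089 values were on the same side, with 13 genes that gained or lost a call. AKR1B10 had too few reads to pass the filter, and AKR1C2 too few unique reads for a test on these alone.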
